A study of Mus musculus with 8 samples.

Results

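The ETS transcription factors that act downstream of ERK are described here through 9 genes, Etv1, Etv4, Etv5, Etv6, Ets1, Ets2, Elk1, Elk3 and Elk4. They were taken by gene symbol from a table of 30266 genes. All 9 were in the table once and all 9 had enough reads to be tested. Whole liver was sequenced from male mice labelled Mdr2-/- at 8 weeks of age, 4 h after recombinant FGF21 (rFGF21) at 1.0 mg/kg (4 libraries) or after the PBS vehicle (4 libraries). Mdr2, now called Abcb4, encodes the transporter that moves phospholipid into bile, and both groups carry its -/- label, so no liver with a normal gene stands beside them. Whether each library comes from its own animal is not stated, and the p-values therefore measure only how far these libraries spread. No strain or route of dosing is named in the labels. Libraries keep the numbers of the table's columns, 1, 2, 3 and 5 for rFGF21 and 1, 2, 4 and 5 for PBS.

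ETS transcription factors share a DNA-binding domain that reads a short GGAA core, and several of them act at the nuclear end of the RAS-ERK cascade. The Pea3 group (Etv1, Etv4 and Etv5) is switched on as genes by FGF and ERK signalling. Capicua, encoded by Cic, is the repressor that holds this group down until ERK inactivates it. Ets1 and Ets2 are instead made before the signal and are activated when ERK phosphorylates the protein. The same holds for the ternary complex factors Elk1, Elk3 and Elk4, which bind DNA together with serum response factor (SRF). Etv6 is mainly a repressor. FGF21 reaches this cascade through FGF receptors that pair with the co-receptor beta-Klotho.

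Library totals ran from 62756328 to 73313449 reads. The protocol text speaks of retina while the tissue labels say liver. Crx and Rcvrn, genes of photoreceptors, were at 0 in all 8 libraries, and 8 hepatocyte markers summed to between 62450 and 78980 CPM in rFGF21 libraries and between 68820 and 86480 CPM in PBS libraries. CPM is the read count scaled to library depth, here with trimmed-mean (TMM) factors. Whole liver was measured, so more RNA per cell and more cells of a type cannot be told apart in any result.

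Of the 9 factors, Etv5 was the 1 that rose after rFGF21 and none fell (edgeR quasi-likelihood test, with p adjusted by Benjamini-Hochberg over 18315 genes and called under 0.05). Over all genes tested, 1.15% were called higher and 1.67% lower by the same rule. Etv4 had a larger fold change than Etv5 but missed the threshold. Ets1, Ets2, Etv6 and the 3 Elk genes were all between -0.10 and 0.46 on the log2 scale, and none passed. At an unadjusted p under 0.05, 4 of the 9 were higher (Etv4, Etv5, Etv6 and Elk3) and none was lower, where 8.92% of all genes were higher. The median log2 fold change of the 9 was 0.29, against 0.00 over all genes tested. For the lists below, the backgrounds of the 2 alternative tests differ from that of edgeR. DESeq2 called 688 of 18315 genes higher and 820 lower. Limma on log2(FPKM + 1) called 135 of 18934 genes higher and 117 lower.

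**Figure D1:**
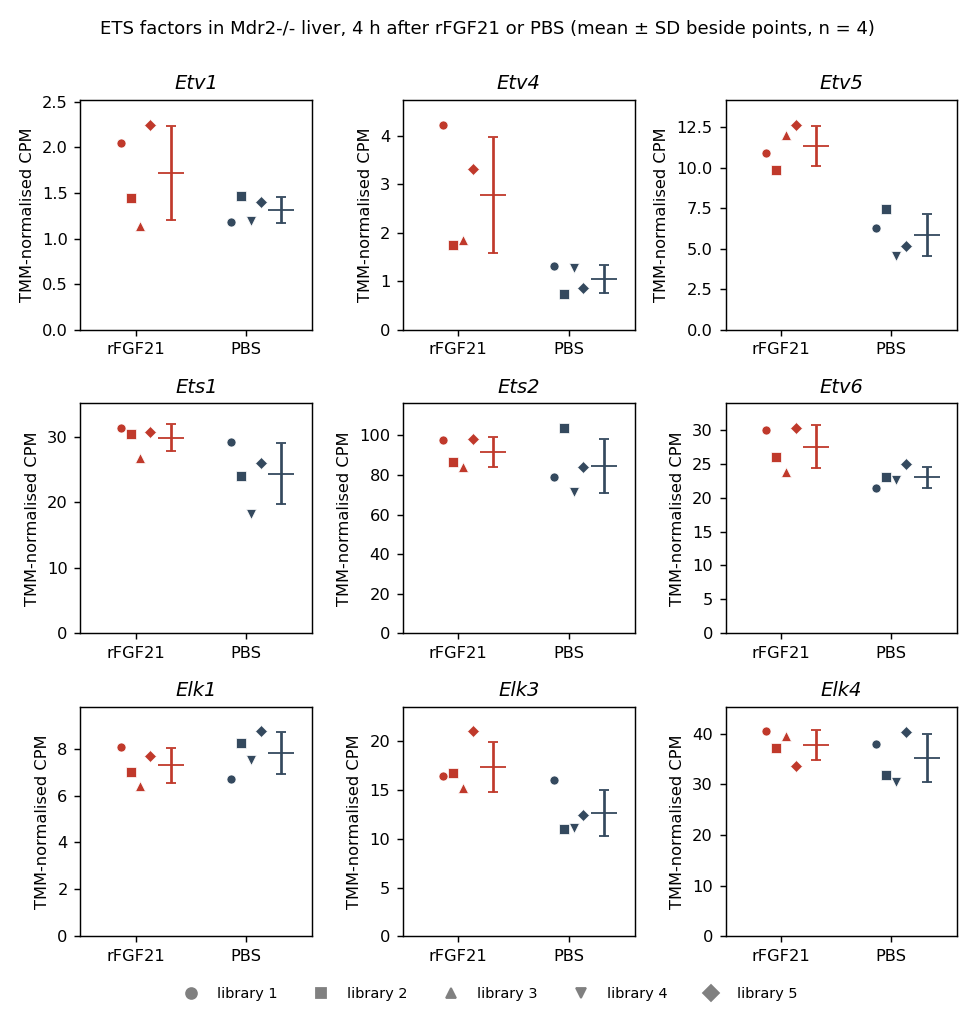
TMM-normalised CPM of the 9 ETS factors in each library, rFGF21 left and PBS right of each panel, with the mean and SD (n = 4) beside the points and every axis starting at 0. Only in the panels of Etv4 and Etv5 do the groups lie apart: Etv5 spans 9.85 to 12.7 CPM in rFGF21 libraries and 4.55 to 7.44 CPM in PBS libraries.

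Etv5 (ENSMUSG00000013089, GRCm38 chromosome 16, 22381309 to 22439719, minus strand), also known as ERM, is an activator induced by FGF signalling in many tissues. It had 10.9, 9.85, 12.04 and 12.67 CPM in rFGF21 libraries 1, 2, 3 and 5, against 6.26, 7.44, 4.55 and 5.17 CPM in PBS libraries 1, 2, 4 and 5. The lowest rFGF21 library stood above the highest PBS library. These values rest on 698 to 958 reads per rFGF21 library and 266 to 473 reads per PBS library. The means were 11.4 ± 1.2 CPM in rFGF21 and 5.85 ± 1.27 CPM in PBS livers (SD, n = 4 each), a 1.94-fold difference. The log2 fold change was 0.96 ± 0.17 (SE, 95% interval 0.59 to 1.33, edgeR quasi-likelihood adjusted p = 0.0178). The fold change moved little when a library was left out (0.86 to 1.09). The call was lost without rFGF21 library 1 (edgeR adjusted p = 0.0581), rFGF21 library 5 (0.0602) or PBS library 5 (0.0512).

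RefSeq gives Etv5 a pair of start sites on GRCm38.p6, and the 300 bases around the downstream one (250 before the start, 50 after) are shown because Etv5 is the factor that rose. The window is chr16:22438319-22438618 on the minus strand, read 5′ to 3′, and capitals mark the octamer TGAATGGG or its reverse complement.
Etv5: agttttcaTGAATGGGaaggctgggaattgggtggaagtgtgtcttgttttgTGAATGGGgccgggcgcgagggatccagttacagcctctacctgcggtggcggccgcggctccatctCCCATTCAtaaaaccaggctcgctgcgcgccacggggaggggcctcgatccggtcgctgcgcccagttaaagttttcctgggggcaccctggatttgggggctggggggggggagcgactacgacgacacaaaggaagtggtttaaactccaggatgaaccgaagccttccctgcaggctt

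The marked octamers start at bases 9, 53 and 120 of the window, counted from 1 at its 5′ end. This octamer was chosen after the sequence was seen. It shares its first 7 letters with TGAATGGA, a form of the Capicua octamer. One or more copies were in 1.08% of 32851 promoter windows of the same length, and 3 or more were in 1 window, that of Etv5. Since the octamer was picked from this same window, these shares are no support for a Capicua site. The 4 Capicua octamers searched first (TGAATGAA, TGAATGGA, TCAATGAA and TCAATGGA, both strands) were in 3.84% of all windows and in none of the 11 windows that RefSeq gives for 7 of the 9 factors. The ETS consensus ACCGGAAGT (1.10% of all windows) and the AP-1 sites TGACTCA and TGAGTCA (5.20%) were not in those 11 windows either. The upstream Etv5 window, chr16:22439521-22439820, held no copy of any of these motifs and was 74.0% G and C, against 60.0% in the window shown. Binding to these sequences was not measured.

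Etv4 (ENSMUSG00000017724, chromosome 11, 101769742 to 101785371, minus strand), the factor PEA3 that names the group, had 4.24, 1.75, 1.86 and 3.32 CPM in rFGF21 libraries 1, 2, 3 and 5. In PBS libraries 1, 2, 4 and 5 it had 1.32, 0.739, 1.27 and 0.873 CPM. The groups did not overlap, but rFGF21 libraries 1 and 5 stood well above libraries 2 and 3, and the coefficient of variation within the rFGF21 group was 42.9%, against 27.4% in PBS. Counts were low, at 124 to 318 reads in rFGF21 libraries and 47 to 93 reads in PBS libraries. On the log2 scale the fold change was 1.41 ± 0.34 (95% interval 0.66 to 2.16), with edgeR adjusted p = 0.0550 (unadjusted 0.0017). DESeq2 on the same counts called it (adjusted p = 0.00192), as did edgeR on genes with at least 1 CPM in 4 libraries (0.0467). Leaving out rFGF21 library 1 lowered the fold change to 1.14 on the log2 scale, and the edgeR adjusted p over the 8 fits that left out a library ran from 0.0515 to 0.150.

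Etv1 (ENSMUSG00000004151, chromosome 12, 38779380 to 38870484, plus strand), or ER81, was with Etv4 one of the factors with the fewest reads. It had 2.05, 1.44, 1.14 and 2.25 CPM in rFGF21 libraries 1, 2, 3 and 5, against 1.18, 1.46, 1.20 and 1.40 CPM in PBS libraries 1, 2, 4 and 5. The groups overlapped: libraries 1 and 5 of rFGF21 were above all PBS libraries, and library 3 was below all of them. Its log2 fold change was 0.39 ± 0.27 (95% interval -0.19 to 0.98, edgeR adjusted p = 0.467). Without rFGF21 library 5 it was 0.24, and over the fits that left out a library it ran to 0.55. The 95% interval still allows a rise as large as that of Etv5. Of the 9 factors, Etv4 and Etv5 were those whose groups did not overlap, both with rFGF21 higher. Over all genes tested, 5.90% had rFGF21 libraries entirely above PBS libraries.

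Bile ducts are the site of injury in Mdr2-/- livers, so duct markers were read in the same libraries. The 8 cholangiocyte markers summed to 365, 266, 295 and 411 CPM in rFGF21 libraries 1, 2, 3 and 5, against 299, 283, 212 and 271 CPM in PBS libraries 1, 2, 4 and 5. None of the 8 was at 0 in any library. None was called by edgeR (5 were higher at an unadjusted p under 0.05, DESeq2 called Sox9 and Krt19 higher, limma on log2(FPKM + 1) called none), and their median log2 fold change was 0.56. The marker sum was highest in rFGF21 libraries 1 and 5, the same libraries in which Etv4 was highest. Set against that sum, Etv4 was 1.16, 0.658, 0.631 and 0.808% of it in rFGF21 libraries 1, 2, 3 and 5, against 0.441, 0.262, 0.597 and 0.322% in PBS libraries 1, 2, 4 and 5. Etv5 was 2.99 to 4.08% of the sum in rFGF21 libraries and 1.91 to 2.63% in PBS libraries. Both ratios were higher in every rFGF21 library than in any PBS library, and for Etv4 the closest values were 0.631 and 0.597%. Which cells carried these reads was not tested.

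**Figure D2:**
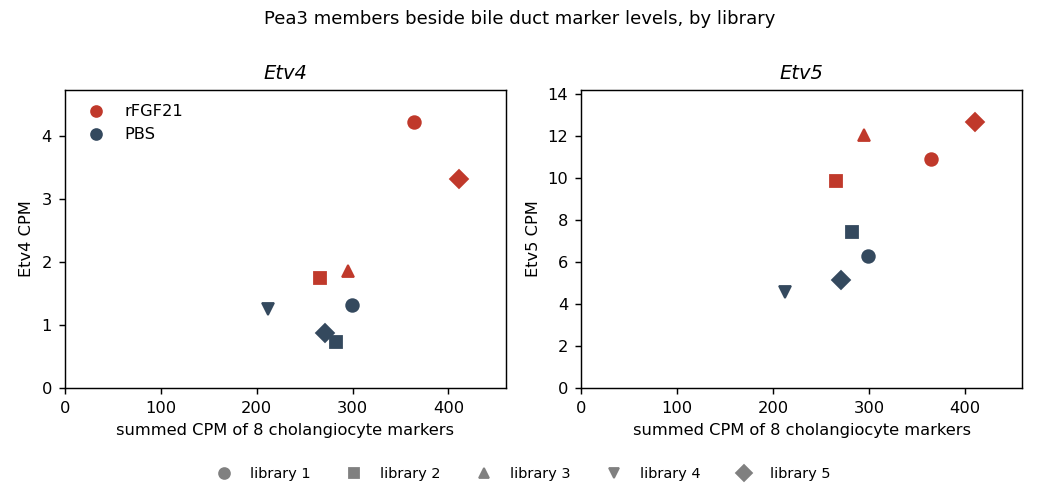
CPM of Etv4 (left) and Etv5 (right) against the summed CPM of 8 cholangiocyte markers, 1 point per library, with rFGF21 in red, PBS in dark blue and marker shapes for library numbers. The rFGF21 libraries with the largest marker sums (365 and 411 CPM) have the largest Etv4 values (4.24 and 3.32 CPM), while rFGF21 libraries 2 and 3 lie at PBS marker sums and above PBS libraries for both genes.

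Ets1 and Ets2 are close relatives that ERK activates through a threonine next to their Pointed domain. Ets1 (ENSMUSG00000032035, chromosome 9, 32636221 to 32757820, plus strand) is best known from endothelial cells and lymphocytes. It had 31.4, 30.5, 26.8 and 30.7 CPM in rFGF21 libraries 1, 2, 3 and 5, against 29.2, 24.0, 18.2 and 26.1 CPM in PBS libraries 1, 2, 4 and 5. The groups overlapped, with PBS library 4 lowest and PBS library 1 above rFGF21 library 3. The log2 fold change was 0.29 ± 0.13 (95% interval -0.01 to 0.59, edgeR adjusted p = 0.275). Without PBS library 4 it was 0.18.

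Ets2 (ENSMUSG00000022895, chromosome 16, 95702075 to 95721051, plus strand) is the widely expressed partner of Ets1 and was the most abundant of the 9. It had 97.6, 86.7, 84.0 and 98.4 CPM in rFGF21 libraries 1, 2, 3 and 5, against 79.2, 104, 71.6 and 83.9 CPM in PBS libraries 1, 2, 4 and 5. PBS library 2 held the highest value of all 8. Its log2 fold change was 0.12 ± 0.12 (95% interval -0.14 to 0.38, edgeR adjusted p = 0.655), so a rise of the size seen for Etv5 lies outside the interval. Neither gene of this pair was called by edgeR, DESeq2 or limma on log2(FPKM + 1), and by edgeR neither had an unadjusted p under 0.05 (Ets1 0.0536 by edgeR and 0.0436 by limma). Without PBS library 2 the value of Ets2 was 0.23 (unadjusted p = 0.0488, edgeR adjusted p = 0.277), and without PBS library 4 it was 0.05.

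Among the Elk genes, Elk1 and Elk4 lay close to 0 and Elk3 did not. Elk1 (ENSMUSG00000009406, chromosome X, 20933395 to 20950608, minus strand), the classic ERK substrate at serum response elements, had 8.06, 7.01, 6.39 and 7.70 CPM in rFGF21 libraries 1, 2, 3 and 5. In PBS libraries 1, 2, 4 and 5 it had 6.72, 8.26, 7.53 and 8.73 CPM, within much the same range. On the log2 scale the fold change was -0.10 ± 0.14 (95% interval -0.40 to 0.20, edgeR adjusted p = 0.756), and its sign turned to 0.057 on TPM-scaled values.

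Elk4 (ENSMUSG00000026436, chromosome 1, 132007607 to 132032612, plus strand), also called SAP-1, had 40.5, 37.2, 39.5 and 33.7 CPM in rFGF21 libraries 1, 2, 3 and 5, against 38.0, 31.9, 30.6 and 40.4 CPM in PBS libraries 1, 2, 4 and 5. The groups overlapped through PBS libraries 1 and 5, while PBS libraries 2 and 4 were below every rFGF21 library. The log2 fold change was 0.10 ± 0.11 (95% interval -0.14 to 0.34, edgeR adjusted p = 0.686). It was 0.04 without PBS library 4 and 0.18 without PBS library 5.

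Elk3 (ENSMUSG00000008398, chromosome 10, 93247414 to 93311135, minus strand), or NET, represses its targets until ERK phosphorylates it. It had 16.4, 16.8, 15.2 and 21.0 CPM in rFGF21 libraries 1, 2, 3 and 5, against 16.0, 11.0, 11.1 and 12.4 CPM in PBS libraries 1, 2, 4 and 5. PBS library 1 alone reached into the rFGF21 range, and rFGF21 library 5 was the highest. Its log2 fold change was 0.46 ± 0.15 (95% interval 0.13 to 0.78, unadjusted p = 0.0106), but it did not pass over all genes (edgeR adjusted p = 0.129, DESeq2 0.0536). Without PBS library 1 it was 0.60, and without rFGF21 library 5 it was 0.35. No Elk gene was called by edgeR, DESeq2 or limma on log2(FPKM + 1), and Elk3 was the 1 with an unadjusted p under 0.05.

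Endothelial cells and fibroblasts express Ets1 and Elk3, so their markers stand beside these values. The 10 endothelial markers summed to between 162 and 250 CPM in rFGF21 libraries and between 168 and 293 CPM in PBS libraries, with none at 0. None of the 10 was called or had an unadjusted p under 0.05 by edgeR, and DESeq2 and limma called none. Elk3 was 6.70 to 13.0% of that sum in rFGF21 libraries and 5.45 to 6.52% in PBS libraries, without overlap, while Ets1 overlapped at 12.2 to 19.0% and 9.20 to 14.3%. The 8 stellate cell and fibroblast markers summed to between 950 and 1470 CPM in rFGF21 libraries and between 744 and 1040 CPM in PBS libraries, none at 0. None was called by edgeR, 4 were higher at an unadjusted p under 0.05 (Col1a1, Col1a2, Col3a1 and Pdgfrb), DESeq2 called Col1a1 and Col1a2, and limma called none. Set against that sum Elk3 overlapped, at 1.27 to 1.77% in rFGF21 libraries and 1.11 to 1.54% in PBS libraries. The 10 markers of T, NK and B cells summed to between 39.4 and 53.1 CPM in rFGF21 libraries and between 35.6 and 47.4 CPM in PBS libraries, and Ms4a1 was at 0 in PBS library 4. None of those 10 was called by edgeR or limma, 2 were higher at an unadjusted p under 0.05, and DESeq2 called Cd8a. Their part in the values of Ets1 and Elk3 was not tested.

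Etv6 (ENSMUSG00000030199, chromosome 6, 134035700 to 134270158, plus strand), known as TEL, had 30.1, 26.0, 23.9 and 30.3 CPM in rFGF21 libraries 1, 2, 3 and 5. In PBS libraries 1, 2, 4 and 5 it had 21.4, 23.0, 22.7 and 25.0 CPM. The groups overlapped at 1 point, where PBS library 5 exceeded rFGF21 library 3. On the log2 scale the difference was 0.26 ± 0.10 (95% interval 0.03 to 0.49, unadjusted p = 0.0288, edgeR adjusted p = 0.205).

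**Figure D3:**
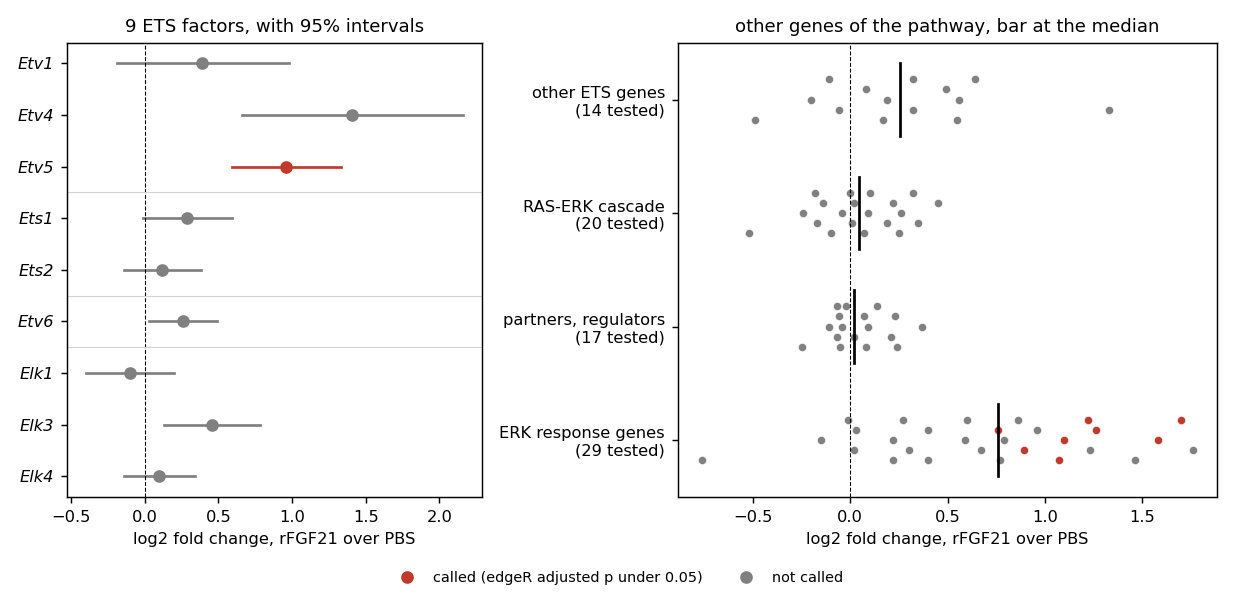
Left, log2 fold change of each factor, rFGF21 over PBS, with unadjusted 95% intervals from edgeR and subgroups parted by grey lines. Right, log2 fold changes of 4 lists of related genes with a bar at each median, where red marks an adjusted p under 0.05: 8 of 29 ERK response genes and no gene of the other 3 lists are red. The lists were chosen with earlier results of these data known.

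In GENCODE M21 the span of another annotated gene, introns included, lies over exons of 4 factors. Uxt lies over Elk1 (same strand), Cdk17 over Elk3 (opposite strand), Gm29103 and Mfsd4a over Elk4, and Gm17089 over Etv6. Whether the exons of these genes coincide was not checked. The sources used here do not give how reads at such overlaps were counted, which leaves the counts of these 4 factors less certain. No other gene lies over exons of Etv1, Etv4, Etv5, Ets1 or Ets2.

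Levels of different factors were compared per length, as FPKM computed here from the counts and the union of each gene's annotated exons. Ets2 led in both groups, at 16.4 ± 1.9 FPKM in rFGF21 and 14.3 ± 2.8 FPKM in PBS livers (SD, n = 4 each). Elk4 followed at 6.05 ± 0.35 FPKM in rFGF21 and 5.35 ± 0.78 FPKM in PBS livers, and its range was clear of its neighbours in order, Ets2 and Etv6. Etv6, Ets1 and Elk3 came next, with means between 3.63 and 4.75 FPKM in rFGF21 and between 2.70 and 3.74 FPKM in PBS livers. Neighbours among these 3 overlapped, other than Etv6 and Ets1 in PBS livers, where the lowest Etv6 value was 3.48 FPKM and the highest Ets1 value 3.44 FPKM. Etv4 averaged 0.932 ± 0.415 FPKM in rFGF21 and 0.327 ± 0.087 FPKM in PBS livers. Etv1 was last, at 0.134 ± 0.045 FPKM in rFGF21 and 0.0958 ± 0.0128 FPKM in PBS livers, below every Etv4 library in both groups.

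Etv5 changed its place in that order. In rFGF21 livers it stood at 2.86 ± 0.41 FPKM and all 4 libraries (2.39 to 3.37) were above all values of Elk1 (1.20 to 1.56). In PBS livers Etv5 (1.40 ± 0.36 FPKM) and Elk1 (1.41 ± 0.17 FPKM) overlapped. The ratio of Etv5 to Elk1 was 1.78, 1.84, 2.47 and 2.16 in rFGF21 libraries 1, 2, 3 and 5, against 1.22, 1.18, 0.793 and 0.776 in PBS libraries 1, 2, 4 and 5. The highest rFGF21 value of Etv5, 3.37 FPKM in library 5, also reached into the range of Ets1 (3.19 to 3.95 FPKM in rFGF21 livers), while in PBS livers Etv5 stayed below every Ets1 value (1.97 to 3.44 FPKM).

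**Figure D4:**
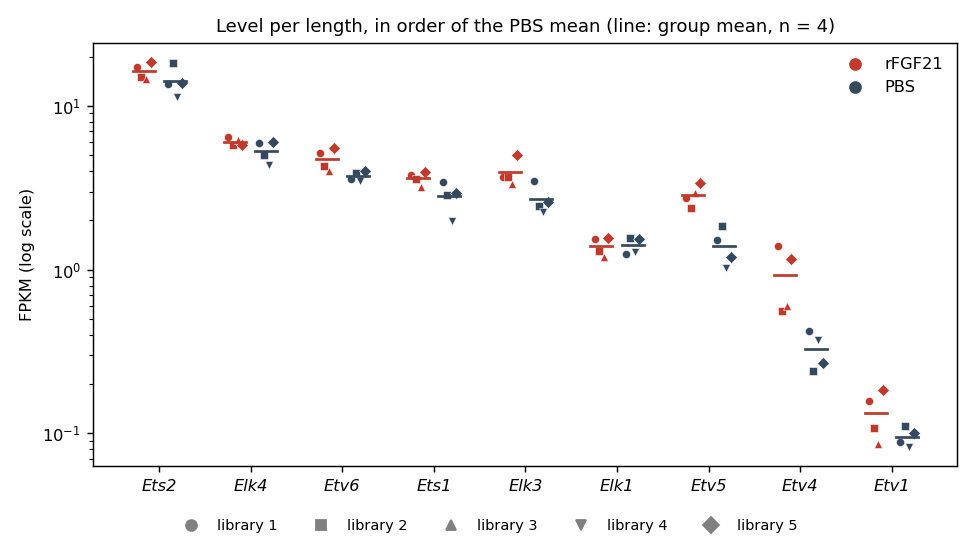
FPKM of the 9 factors on a log axis, 1 symbol per library with a line at each group mean, rFGF21 left and PBS right of each gene, in order of the PBS mean. Ets2 is highest in both groups at 16.4 FPKM in rFGF21 and 14.3 FPKM in PBS livers, and Etv5 lies above Elk1 in rFGF21 but level with it in PBS livers.

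Ratios within a library set the 3 subgroups against each other without regard to how libraries were scaled. The summed FPKM of Etv1, Etv4 and Etv5 per summed FPKM of the Elk genes was 0.366, 0.284, 0.339 and 0.383 in rFGF21 libraries 1, 2, 3 and 5. In PBS libraries 1, 2, 4 and 5 it was 0.191, 0.242, 0.187 and 0.154. The Pea3 group per Ets1 and Ets2 was 0.165 to 0.209 in rFGF21 libraries and 0.0936 to 0.119 in PBS libraries. Neither ratio overlapped between groups. In summed CPM the Pea3 group stood at 13.0 to 18.2 in rFGF21 libraries and 7.01 to 9.64 in PBS libraries, while the Elk genes overlapped narrowly at 61.0 to 64.9 CPM in rFGF21 libraries and 49.2 to 61.6 CPM in PBS libraries. In summed FPKM the Elk genes did not overlap, at 10.75 to 12.3 in rFGF21 libraries and 7.92 to 10.67 in PBS libraries. FPKM was scaled to library totals without the TMM factors, which were 0.996 to 1.09 in rFGF21 and 0.919 to 1.01 in PBS libraries. Ets1 and Ets2 per Elk genes did overlap, at 1.66 to 1.83 in rFGF21 libraries and 1.604 to 2.33 in PBS libraries, where PBS library 2 with its high Ets2 was the top value. No p is given for these sums, since the genes were grouped with results known.

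As a share of the summed FPKM of all 9 factors, the Pea3 group made up 9.75 ± 0.95% in rFGF21 and 5.65 ± 0.59% in PBS livers (SD, n = 4 each). Ets1 and Ets2 together made up 49.2 to 50.5% in rFGF21 libraries and 50.9 to 58.2% in PBS libraries, also without overlap. Ets2 alone made up 40.8 ± 0.35% in rFGF21 and 44.3 ± 4.1% in PBS livers. Within the Pea3 group Etv5 carried most of the signal, 63.6 to 81.1% in rFGF21 libraries and 69.0 to 83.9% in PBS libraries, so its share did not separate the groups.

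**Figure D5:**
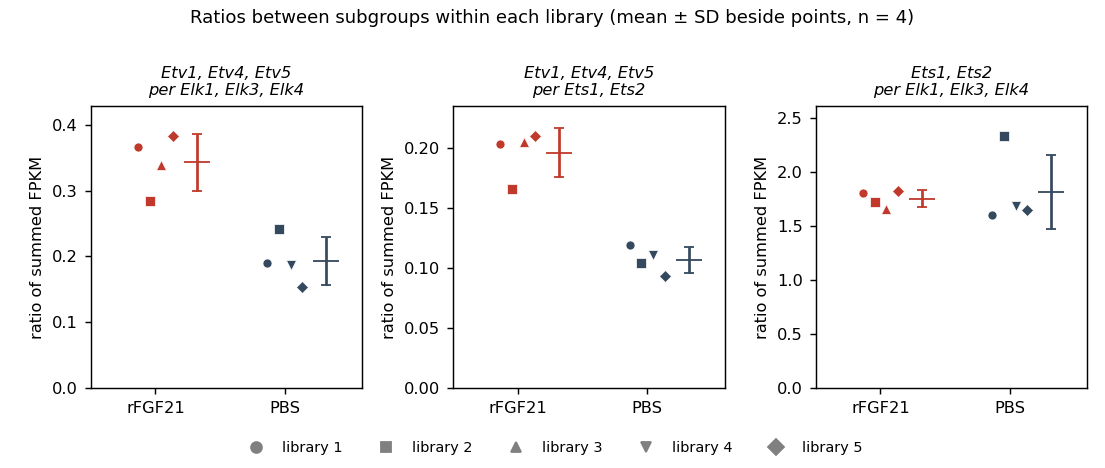
Ratios of summed FPKM between subgroups within each library, rFGF21 left and PBS right, with mean and SD (n = 4) beside the points and axes starting at 0. The Pea3 group per Elk genes lies at 0.284 to 0.383 in rFGF21 and 0.154 to 0.242 in PBS libraries, while Ets1 and Ets2 per Elk genes overlap.

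Other ETS genes were read for comparison. Of 18 listed, 14 were tested and none was called by edgeR (4 were higher at an unadjusted p under 0.05, DESeq2 called Elf3 and Fli1 higher, limma on log2(FPKM + 1) called none). Over all genes tested, 8.92% were higher at that unadjusted p, and DESeq2 called 688 of 18315 higher. The median log2 fold change of the 14 was 0.25. Elf3, an epithelial factor of duct and gut lining, had 37.8, 20.3, 33.2 and 46.3 CPM in rFGF21 libraries 1, 2, 3 and 5, against 13.1, 22.7, 11.7 and 7.01 CPM in PBS libraries 1, 2, 4 and 5. The groups overlapped through PBS library 2, and the log2 fold change was 1.33 ± 0.33 (edgeR adjusted p = 0.0606). Leaving out PBS library 2 or rFGF21 library 2 brought Elf3 under the threshold, with adjusted p down to 0.0273. Fli1, an endothelial and blood cell factor, was 0.55 ± 0.15 (edgeR adjusted p = 0.0838), without overlap between groups. Elf1 and Elf4 both had log2 fold changes of 0.32, the epithelial factor Ehf 0.49 and the B cell factor Spib 0.64, and none of these passed.

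No gene of the cascade that leads to these factors passed the threshold, though some leaned higher. Of 20 genes from the adaptor Shc1 to the kinases downstream of ERK, none was called by edgeR (4 were higher at an unadjusted p under 0.05, DESeq2 called Shc1 and Nras higher, limma called Shc1), and the median log2 fold change was 0.04. In 4 of the 20 (Shc1, Nras, Map2k1 and Rps6ka4) every rFGF21 library was above every PBS library, against 5.90% of all genes. The summed level of the 20 was 834 to 843 CPM in rFGF21 libraries and 790 to 827 CPM in PBS libraries. Mapk3, which encodes ERK1, had a log2 fold change of 0.10 ± 0.10 (95% interval -0.13 to 0.32), an interval narrow enough to leave out a 1.5-fold change. Shc1 was 67.3 ± 2.3 CPM in rFGF21 and 53.8 ± 3.3 CPM in PBS livers (0.32 ± 0.08, edgeR adjusted p = 0.0531), and passed without PBS library 4 (0.0379). Nras (0.35 ± 0.10), Map2k1, which encodes MEK1 (0.22 ± 0.08), and the kinase genes Rps6ka4 (0.26 ± 0.09) and Rps6ka5 (-0.52 ± 0.25) did not pass, nor did the exchange factor Sos1 (-0.24 ± 0.12). RNA levels do not show how far ERK was phosphorylated, which was not analysed here.

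Partners and regulators of ETS proteins did not pass the threshold either. Of 17 tested, none was called by edgeR, DESeq2 or limma, with Mrtfa, an SRF co-activator, the 1 higher at an unadjusted p under 0.05 (0.37 ± 0.16), and a median of 0.02. Cic, the Capicua gene, had 49.3, 48.7, 46.3 and 56.0 CPM in rFGF21 libraries 1, 2, 3 and 5, against 35.4, 39.0, 55.5 and 43.1 CPM in PBS libraries 1, 2, 4 and 5 (0.21 ± 0.13, edgeR adjusted p = 0.434). Only PBS library 4 reached into the rFGF21 range. Over the fits that left out a library, Cic ran from 0.13 to 0.36 (edgeR adjusted p from 0.0859 to 0.689). Its co-repressors Atxn1 (-0.25 ± 0.12) and Atxn1l (0.14 ± 0.11) did not pass. Cop1, which encodes a ubiquitin ligase that targets Pea3 proteins, was 0.08 ± 0.11, and Srf, the DNA partner of the Elk proteins, was -0.06 ± 0.13. Both sat close to 0, and the sign of Srf turned under some alternatives. Sin3a, a co-repressor scaffold (0.23 ± 0.11), and Mrtfb (0.24 ± 0.25) did not pass either.

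Genes known to respond to ERK included several that rose with Etv5. Of 29 tested, 8 rose by edgeR and none fell, where 1.15% of all genes were called higher, and the median log2 fold change was 0.76. The list was chosen with earlier results of these data known, so its contrast with all genes is no independent support. The other 21 did not pass, and 3 of the 29 were below 0, with Myc the lowest at -0.76. The risers were Spred1 (0.76 ± 0.09) and Spry4 (1.26 ± 0.25), which restrain RAS-ERK signalling, and Dusp6 (1.07 ± 0.13), Dusp4 (1.58 ± 0.21) and Dusp5 (0.89 ± 0.20), which dephosphorylate ERK. The others were Hbegf (1.22 ± 0.24), a ligand of the EGF receptor, the early gene Ier3 (1.10 ± 0.24) and the cytokine gene Lif (1.70 ± 0.38). Of the 29 tested, 13 had every rFGF21 library above every PBS library, against 5.90% of all genes. All 8 risers were among the 13, which is no separate support since the same libraries gave the calls. Hbegf had 4.46, 4.39, 3.26 and 6.17 CPM in rFGF21 libraries 1, 2, 3 and 5, against 2.63, 1.81, 1.76 and 1.64 CPM in PBS libraries 1, 2, 4 and 5. The value of Etv5 (0.96) lay inside the range of the 8, from 0.76 to 1.70. Of 8 neutrophil markers 7 were tested, all 7 with fold changes above 0 and a median log2 value of 0.89, and none was called by edgeR, DESeq2 or limma (Cxcr2 and S100a9 were higher at an unadjusted p under 0.05). Their sum was low, at 15.3 to 32.6 CPM in rFGF21 libraries and 13.0 to 21.1 CPM in PBS libraries. Ly6g was at 0 in rFGF21 libraries 1, 2 and 3 and in all PBS libraries, and Retnlg and Mmp8 were each at 0 in 1 PBS library. The part of neutrophils in these values was not tested.

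Spred1, Dusp4 and Dusp6 were called in all 8 fits that left out a library. Ier3 was called only in that without PBS library 1, and Dusp5 only in that without PBS library 5 (edgeR adjusted p up to 0.123 and 0.112 in the other fits). Spry4, Hbegf and Lif were each called in 2 of the 8, with edgeR adjusted p up to 0.0800, 0.0806 and 0.0994. The count was 3 without rFGF21 library 1 or 5, 4 without rFGF21 library 3 or PBS library 2, 4 or 5, and 5 without rFGF21 library 2.

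Genes with an established symbol were ranked across the 8 libraries by Pearson's r of their log2 CPM with that of Etv5. The closest were Dapp1 (0.99), an adaptor of PI3K signalling, and Hrh2 (0.99), the histamine H2 receptor. Next were the interferon regulatory factor gene Irf1 (0.98), Ankrd1 (0.97), a YAP target, and the receptor kinase gene Grk5 (0.97). These were the 5 highest among the tested genes left after symbols of predicted genes, Rik clones and accession numbers were set aside. Their r over deviations from the group means was 0.84 to 0.93, which is no separate support since the same libraries chose them. Of the other factors, Elk3 (0.75), Etv4 (0.73) and Ets1 (0.71) had the highest r, which the shared difference between groups raises. Within groups, Ets2 followed Etv5 most closely (0.74) and Etv4 did not (-0.13). These are descriptions over 8 libraries, scaled together, with no test.

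In the table's own annotation, Elk1 and Elk4 are the 2 of the 9 factors listed under the KEGG term for MAPK signalling. Etv1, Etv4, Etv5, Etv6 and Elk4 are listed under transcriptional misregulation in cancer.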

How the data were processed

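Per the file headers, the deposited table gives raw counts of reads for each gene in each library. Bowtie 0.12.2 and build mm8 are named in the submitters' processing notes. Gene coordinates in the table were compared with GENCODE M21 (GRCm38): 90.5% of 30177 shared identifiers, and all 9 factors, had the same start and end. The sources used here give no counting tool or strand setting. Of the table's value columns, 10 were not used: 2 count columns that have no FPKM column beside them, and the 8 FPKM columns, since columns and samples are numbered differently and each group could be given no more columns than it has samples. Count columns were matched to a group by name and to no single sample. FPKM was computed here from the counts, library totals and union exon lengths of GENCODE M21 (30177 genes), in place of the deposited FPKM planned. No pair of libraries in a group agreed within sampling noise (chi-square per degree of freedom at least 47.1).

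Counts were tested with edgeR 4.0.16 in R 4.3.3 (filterByExpr, TMM, quasi-likelihood F test, two-sided, no covariates), with Benjamini-Hochberg adjustment over 18315 genes at 0.05. Log2 fold changes are rFGF21 over PBS, SEs follow from the F statistic, and 95% intervals are unadjusted. DESeq2 1.42.0 and limma 3.58.1 on log2(FPKM + 1) served as alternatives, with others for scaling, filters, pseudocount and each library left out. The edgeR step was tested on simulated data. The 9 genes and the gene lists were chosen with earlier results of these data known. Named genes are the 9 factors, the called or lowest-p genes of each list (6 to 8), Cic, Cop1, Srf, Mapk3 and the 5 genes nearest Etv5. The nearest genes were taken among those with an established symbol. Of the cascade list, 2 genes are not reported here. Promoters are from RefSeq (GRCm38.p6).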

Additional observations from a re-analysis of the deposited data

Results flagged for a closer look

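Each group of 4 libraries was read for a single value far from the others (a gap to the nearest value beyond Dixon's 95% limit), over 76 groups of the 9 factors and the named list genes. Chance alone marks about 5% of groups. None of the 9 factors had such a value, and 5 other genes did. Mapk3, which encodes ERK1, stood at 61.3 CPM in PBS library 5, against 77.1 to 78.8 CPM in the other PBS libraries. PBS library 1 stood apart for Fli1 (3.92 CPM, against 3.52 to 3.58 CPM), Rps6ka5 (3.12 CPM, against 2.48 to 2.55 CPM) and Hbegf (2.63 CPM, against 1.64 to 1.81 CPM). PBS library 4 was low for Atxn1 (18.6 CPM, against 20.2 to 20.5 CPM).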

How the results depend on the processing

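Over 16 alternatives, 8 of the 9 factors kept the direction of their fold change in all, and Elk1 turned to 0.057 with limma on log2(TPM + 1), a scaling of the values computed here, chosen after seeing the data, that moved the median of all genes to 0.12. Etv5 stayed past the threshold in 12 and Etv4 came past it in 2. DESeq2 called 2 factors, 14 ERK response genes, 2 other ETS genes, 2 cascade genes and 1508 genes in all (688 higher and 820 lower). Limma on log2(FPKM + 1) called 252 genes, 5 ERK response genes and 1 cascade gene, with a pseudocount of 0.1 it called 238 genes and 5 ERK response genes, and without a filter 84 genes, 0 factors and 2 ERK response genes. Without a filter on low counts edgeR called 198 genes and 3 ERK response genes. With at least 1 CPM in 4 libraries it called 2 factors and 1 cascade gene, and limma on TPM called 274 genes and 1 cascade gene. Leaving out a library gave 131 to 486 genes in all, 0 to 1 factor, 3 to 6 ERK response genes, 0 to 1 other ETS gene and 0 to 1 cascade gene; no factor was called without rFGF21 library 1, rFGF21 library 5 or PBS library 5. The share of called genes that were higher was 40.7% in the edgeR test, 53.6% with limma on log2(FPKM + 1), 52.9% with the pseudocount of 0.1 and 73.7% on TPM. The FPKM and TPM values carry no TMM factors, unlike the edgeR test, and the causes of these differences were not tested. No paired analysis was possible because the numbers on the table's columns are not those of the labelled samples, so no replicate block was fitted. Depth limits Etv1 and Etv4 most, at 70 to 170 and 47 to 318 reads per library.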

Other observations

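rFGF21 libraries 1 and 5 held the 2 highest rFGF21 values for 6 of the 9 factors (Etv1, Etv4, Ets1, Ets2, Elk1 and Etv6), where this was so for 19.6% of all genes tested. It also held for the epithelial ETS genes Elf3 and Ehf, the 2 such genes among 14 other ETS genes. Of the marker lists, 7 of 8 cholangiocyte markers (all but Muc1) and 6 of 8 stellate cell and fibroblast markers had their highest rFGF21 values in the same libraries, against 0 of 10 endothelial and 0 of 10 macrophage markers. So did 12 of 29 ERK response genes (41.4%), Dusp4, Ier3 and Hbegf among them, and 6 of 17 partners and regulators (35.3%). Etv5, Elk3 and Elk4 were the factors that did not follow this order. The pattern was noticed in these values and was not tested.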
